A study of Sus scrofa with 74 samples.

Results

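The genes of respiratory complex I whose symbols start with NDUFA (the NDUFAF assembly factors included), NDUFB, NDUFC, NDUFS or NDUFV were read by 45 probe sets of 36 genes, out of 23999 probe sets that are not controls and 6765 genes with a probe set of their own. A probe set is a group of short oligonucleotides that reads 1 transcript, and a probe set was taken as a member where the annotation gives it such a symbol and no other. Of the 36 genes, 5 encode core subunits (9 probe sets), 27 accessory subunits (30 probe sets) and 3 assembly factors (5 probe sets). The last gene, NDUFA4, carries a complex I symbol but is now counted as a subunit of complex IV. It was kept apart from these classes but is included in the counts and pairs over all members. A filter that kept the 12000 brightest probe sets kept 43 of the 45. The further probe sets of NDUFS6 and NDUFAF2 were too dim and were not tested.

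RNA came from a back muscle, the M. longissimus dorsi, taken between the ribs and frozen at slaughter. It was taken from 74 pigs, the F2 of Duroc crossed with Pietrain, at a mean end weight of 110 kg, all free of the RYR1 mutation that causes malignant hyperthermia. Each pig was hybridised to 1 Affymetrix Porcine Genome Array, so that each value is 1 animal and 1 array, and all the animals form 1 untreated group. Animals are numbered in the labels with a gap, and 24 animals numbered 1 to 33 (the lower block) were set against 50 numbered 60 to 114 (the upper block), as a possible technical batch whose meaning the labels do not state. The animals include full sibs, while family, sex, weight at slaughter and date are not among the labels, so that p values treat siblings as independent animals.

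Complex I takes electrons from NADH and hands them to ubiquinone, and it pumps protons across the inner mitochondrial membrane while it does so. Its core subunits in the matrix arm hold the flavin and the iron-sulfur clusters, its accessory subunits surround the core in the matrix arm and in the proximal and distal parts of the membrane arm, and its assembly factors help to build it and then leave. In muscle, the genes of the respiratory chain are more active in fibres that rely on oxidation than in fibres that rely on glycolysis.

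The core subunits read here were NDUFV1, NDUFV2, NDUFS1, NDUFS3 and NDUFS7. RefSeq lists 47 pig genes under the same symbols, and the annotation used here gives 11 of them no probe set of their own, among them the assembly factors NDUFAF4 to NDUFAF8. The core subunits encoded in mitochondrial DNA were not analysed here. All 36 genes matched a RefSeq gene of the same symbol by gene identifier.

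The deposited intensities were at different levels in the blocks, with an array mean of 50.3 to 122.9 in the lower block and 84.7 to 183.2 in the upper block, and each array was brought to 1 common mean before log2 was taken. Each member value is therefore a log2 level relative to the array. A probe set's level can be compared between animals but not with the level of another probe set. The 3 arrays least like the others of their block were those of animals 23, 114 and 26, whose median correlation with the block was 0.866, 0.882 and 0.882, and results that rest on them are given without them as well. Animals 23 and 114 also had the lowest and the highest array mean of all. Of 8 skeletal muscle markers, 4 were read. None of these 4 differed between the blocks in limma, and their summed log2 level was 16.84 to 18.28 in the lower block and 17.12 to 18.17 in the upper block.

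Between the label blocks, more complex I transcripts were lower than higher in the upper block. Of the 43 probe sets, 26 were lower and 7 were higher in the upper block (limma, adjusted p under 0.05 over all 12000 kept probe sets), and the median difference was -0.21 on the log2 scale. Among all kept probe sets the order was the opposite, with 24.8% lower, 36.6% higher and a median difference of 0.07. That opposite order depended on the filter and the scaling. Among the brightest 25% of probe sets 33.5% were lower and 30.6% higher, and after quantile normalization 29.7% and 29.3%. By gene, each read by its brightest probe set, 4 of 5 core subunits and 18 of 27 accessory subunits were lower, against 0 core and 2 accessory subunits that were higher. Of the 3 assembly factors, 2 were lower and 1 was higher. Within the accessory subunits, 8 of 10 genes of the distal membrane arm, 6 of 9 of the proximal membrane arm and 3 of 7 of the matrix arm were lower, as was NDUFAB1, the acyl carrier protein that sits in both arms. The difference between these classes was not tested.

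These directions are relative to the array. In the intensities as deposited, 30 members were higher and 2 lower in the upper block, while 83.7% of all kept probe sets were higher and 2.08% lower there and the median of all of them moved by 0.65, above the members' median of 0.38. With the level of the array as a covariate, 14 members were lower and 8 higher, beside 22.7% and 34.8% of all kept probe sets. Differences in array level and in label block run together, and their parts in the member differences cannot be told apart in full.

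**Figure D1:**
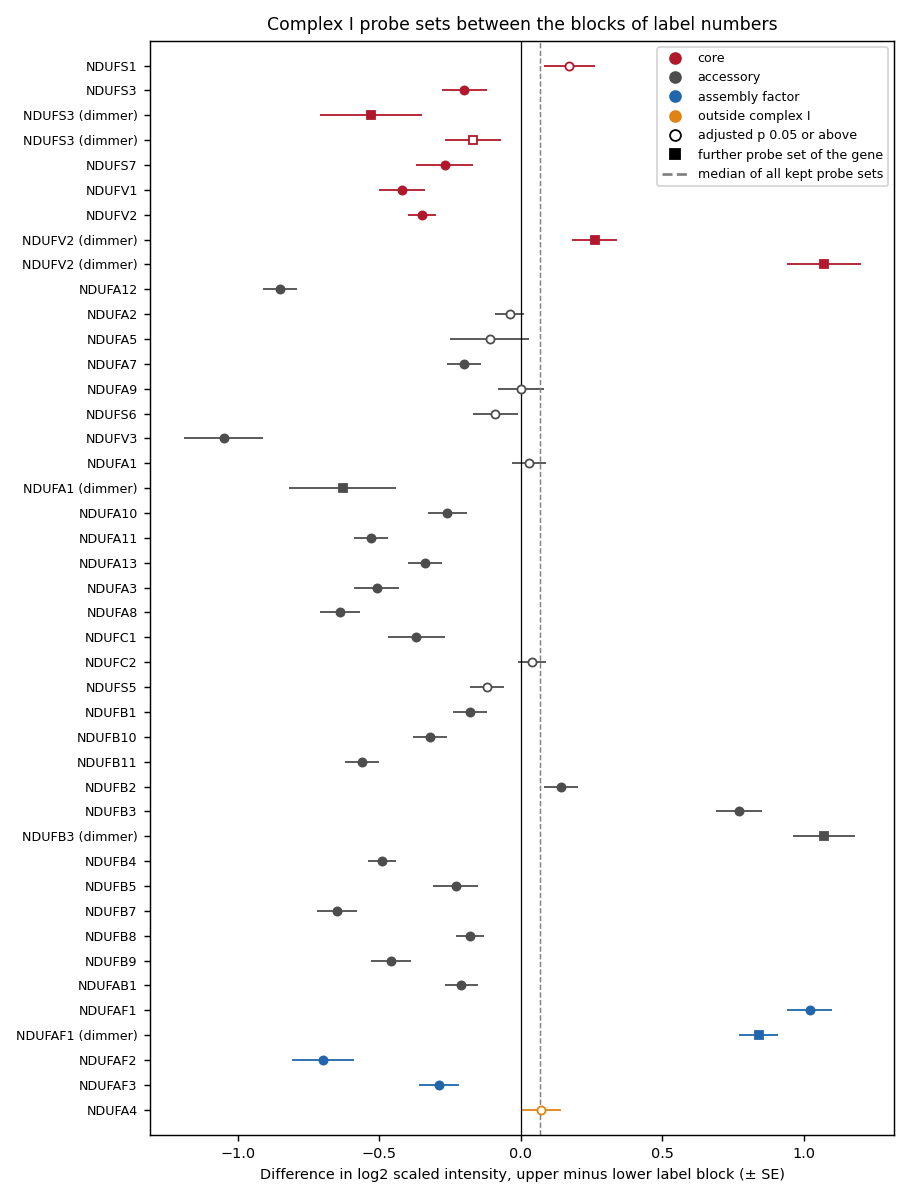
Difference between label blocks (upper minus lower, log2, horizontal axis) for the 43 kept probe sets, grouped by class, with bars for the SE. Filled points passed an adjusted p of 0.05, squares are the dimmer probe sets of a gene, and the dashed line is the median of all kept probe sets. NDUFB3 and NDUFAF1 lie far to the right with both of their probe sets, while NDUFV3 and NDUFA12 lie farthest to the left.

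The plot of the differences between the blocks shows that most members moved modestly to the lower side and that few genes stood far on either side. The genes that were clearly higher in the upper block were NDUFAF1 and NDUFB3, each with both of its probe sets. A dim probe set of NDUFV2 was also higher (1.07), while the brightest set of that gene was lower (-0.35). NDUFAF1 is an assembly factor of the membrane arm, known from human cells. Its brighter probe set ran from 7.17 to 8.37 (median 8.09) in the lower block and from 8.15 to 9.56 (median 8.96) in the upper block. Of the 50 upper animals, 1 fell in the range of the lower block, and 12 of 24 lower animals were below every upper animal. The difference was 1.02 (SE 0.08, limma, adjusted p = 8.8e-18), and the other probe set gave 0.84 (SE 0.07, adjusted p = 6e-19). No member separated the blocks fully, as 0.742% of all kept probe sets did with higher and 0.0583% with lower values in the upper block.

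NDUFB3 is a small accessory subunit of the distal membrane arm. It ran from 10.45 to 11.78 (median 11.32) in the lower block and from 10.79 to 12.52 (median 12.03) in the upper block, a difference of 0.77 (SE 0.08, limma, adjusted p = 3e-14). All 24 lower animals were below the median of the upper block, while 7 upper animals fell in the lower range. Its second probe set gave 1.07 (SE 0.11, adjusted p = 5e-14). The third gene that was higher by its brightest probe set, NDUFB2 of the same arm, differed by only 0.14 (SE 0.06, adjusted p = 0.032), which did not pass with the array level as a covariate (0.19, adjusted p = 0.075).

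With the level of the array as a covariate, NDUFAF1 still gave 0.64 and 0.92, but NDUFB3 fell to 0.33 and 0.48 (each of these with limma, adjusted p from 1.7e-12 to 0.0026). Both genes were higher in the upper block under each scaling tried, the intensities as deposited and quantile normalization included. The intensities as deposited add little to this, since 83.7% of all kept probe sets were higher there.

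Among the members that were lower in the upper block, NDUFA12 had the clearest separation. This accessory subunit of the matrix arm ran from 12.87 to 13.94 (median 13.37) in the lower block and from 11.91 to 13.02 (median 12.50) in the upper block. Of the 24 lower animals, 22 were above every upper animal, and 4 upper animals reached the lower range. The difference was -0.85 (SE 0.06, limma, adjusted p = 2.5e-20). It was -0.88 with the array level as a covariate, -0.81 after quantile normalization and -0.27 in the intensities as deposited, each past the threshold. NDUFAF2, an assembly factor that is a paralogue of NDUFA12 and is known to hold its place in the unfinished complex, ran from 7.19 to 8.83 (median 7.93) in the lower block and from 6.09 to 8.01 (median 7.31) in the upper block. The difference was -0.70 (SE 0.11, adjusted p = 5.1e-08). For NDUFAF2 the blocks overlapped, with 26 upper animals inside or above the lower range. Its probe set carries the suffix of the array's design for sets that may be shared by several transcripts.

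NDUFV3, NDUFB7 and NDUFA8 were the other accessory subunits with the lowest values in the upper block. NDUFV3, a small subunit at the NADH end of the matrix arm, ran from 7.89 to 9.74 (median 8.59) in the lower block and from 5.23 to 8.42 (median 7.71) in the upper block, a difference of -1.05 (SE 0.14, limma, adjusted p = 3.6e-10). NDUFB7 of the distal membrane arm ran from 11.88 to 13.39 (median 12.36) and from 11.02 to 12.52 (median 11.79), a difference of -0.65 (SE 0.07, adjusted p = 4.6e-13). NDUFA8 of the proximal membrane arm ran from 12.87 to 14.38 (median 13.41) and from 11.98 to 13.21 (median 12.78), a difference of -0.64 (SE 0.07, adjusted p = 1.2e-12). For each of these genes all 24 lower animals were above the median of the upper block. The number of upper animals inside the lower range was 15 for NDUFV3, 13 for NDUFB7 and 21 for NDUFA8. With the array level as a covariate the 3 differences were -0.65, -0.36 and -0.50. In the intensities as deposited NDUFB7 (-0.07, limma, adjusted p = 0.38), NDUFA8 (-0.06, adjusted p = 0.51) and NDUFAF2 (-0.12, adjusted p = 0.42) did not pass.

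**Figure D2:**
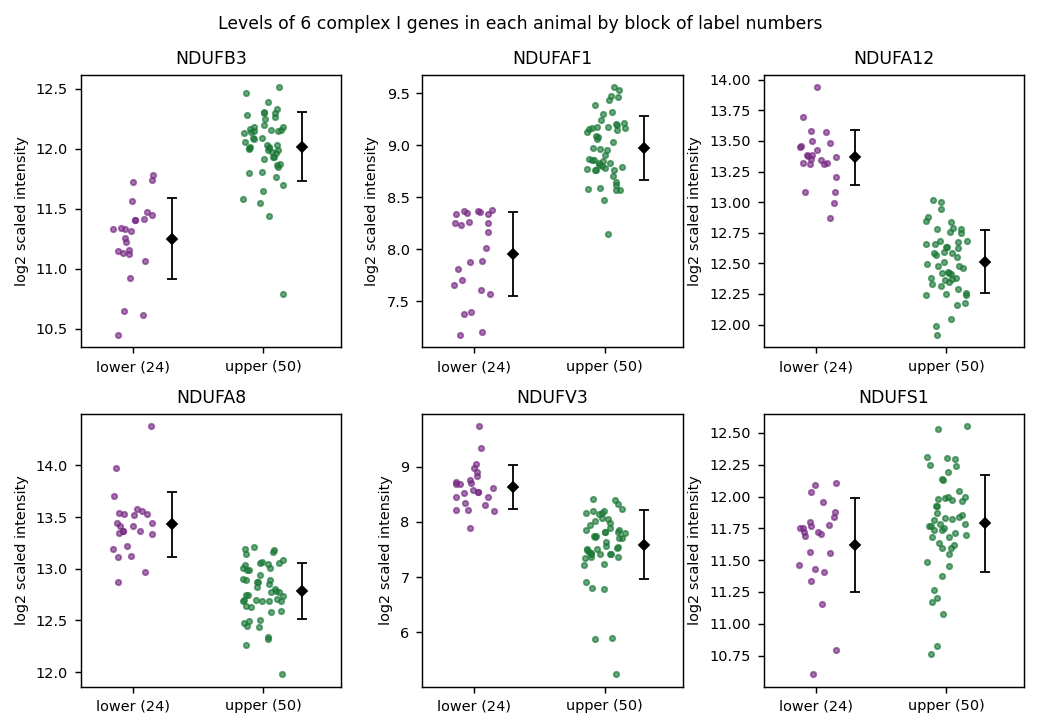
Log2 level of 6 members (vertical axis, 1 panel per gene) in each of the 74 animals, by label block, with diamonds and bars for the block mean and SD. NDUFB3 and NDUFAF1 were higher and NDUFA12, NDUFA8 and NDUFV3 lower in the upper block, NDUFS1 did not pass the test, and the blocks overlapped for each gene.

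Of the core subunits, NDUFV1, which binds NADH and the flavin, ran from 11.22 to 12.40 (median 11.66) in the lower block and from 10.30 to 12.35 (median 11.27) in the upper block, a difference of -0.42 (SE 0.08, limma, adjusted p = 4.5e-06). NDUFS7, which holds the iron-sulfur cluster that passes electrons to ubiquinone, ran from 11.50 to 13.16 (median 12.22) and from 10.54 to 12.75 (median 11.93), a difference of -0.27 (SE 0.10, adjusted p = 0.018). NDUFS1, which holds several iron-sulfur clusters, ran from 10.60 to 12.11 (median 11.72) and from 10.76 to 12.55 (median 11.80), a difference of 0.17 (SE 0.09, adjusted p = 0.11) that did not pass. In all 3 the blocks overlapped over most of their range. The differences of NDUFV1, NDUFS7 and NDUFAB1 (-0.21, SE 0.06, adjusted p = 0.0019) came to 0.01, 0.08 and 0.01 with the array level as a covariate and turned positive in the intensities as deposited. Without animals 23, 114 and 26, 2 of 5 core subunits rather than 4 passed, as NDUFS7 (-0.19, adjusted p = 0.066) and NDUFS3 (-0.15, adjusted p = 0.064) no longer did. Without animal 23 alone, NDUFS3 (-0.16, adjusted p = 0.061) did not pass, and after quantile normalization neither NDUFS7 (-0.20, adjusted p = 0.067) nor NDUFS3 (-0.14, adjusted p = 0.082) did.

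NDUFV2 and NDUFA1 depended on the probe set that was read. The brightest probe set of NDUFV2, a core subunit with an iron-sulfur cluster, ran from 13.03 to 14.10 (median 13.49) in the lower block and from 12.70 to 13.49 (median 13.17) in the upper block, and its difference was -0.35 (SE 0.05, limma, adjusted p = 2.9e-08). Its 2 dimmer probe sets were higher in the upper block, by 0.26 (SE 0.08, adjusted p = 0.0033) and 1.07 (SE 0.13, adjusted p = 4.7e-11). Over the animals, the brightest correlated with them at r of 0.52 and 0.37 (rho 0.38 and 0.24) in the lower block and at r of 0.03 and 0.26 (rho 0.08 and 0.36) in the upper block. NDUFV2 is the only member gene whose probe sets passed in opposite directions between the blocks. For NDUFA1, a small subunit of the proximal membrane arm, the brightest probe set differed by 0.03 and the dimmer one by -0.63 (SE 0.19, adjusted p = 0.0026), and the 2 correlated at r of -0.37 (rho -0.35) in the lower and -0.20 (rho -0.21) in the upper block. That dimmer set also carries the suffix for possibly shared sets.

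NDUFS3, a core subunit close to the ubiquinone site, had 3 probe sets, with differences of -0.20 (SE 0.08, limma, adjusted p = 0.022), -0.53 (SE 0.18, adjusted p = 0.0079) and -0.17 (SE 0.10, adjusted p = 0.15). The first and the last of them followed each other (r 0.82 and 0.86, rho 0.64 and 0.75, in the lower and upper block), while the first and the middle one did not (r -0.36 and -0.12, rho -0.02 and -0.20). The 2 probe sets of NDUFB3 were close to each other (r 0.90 and 0.86, rho 0.72 and 0.78), whereas those of NDUFAF1, which differed between the blocks alike, were related within the lower block (r 0.50, rho 0.50) and hardly within the upper (r 0.05, rho 0.08).

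A further question was whether complex I transcripts vary from animal to animal with those of the other respiratory complexes. An index was formed from 27 genes of complexes II to V as the mean of their standardized levels, scaled to an SD of 1, and each probe set was regressed on it with the label block as a covariate. A slope is the log2 change per SD of the index. Of the 43 members, 36 rose with the index and 1 fell (limma, adjusted p under 0.05), beside 9.11% and 13.6% of all kept probe sets outside the index. The median slope was 0.17 for the members and -0.01 for all. By gene, 5 of 5 core subunits, 25 of 27 accessory subunits and 2 of 3 assembly factors rose, as did NDUFA4. All accessory genes of the membrane arm rose, 10 of 10 in its distal and 9 of 9 in its proximal part, and so did 5 of 7 in the matrix arm, where NDUFV3 (0.01, SE 0.07, adjusted p = 0.95) and NDUFA5 (0.14, SE 0.07, adjusted p = 0.10) did not pass.

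The steepest slopes belonged to core subunits. NDUFS7 rose by 0.34 per SD (SE 0.03, limma, adjusted p = 1.1e-16) and NDUFS1 by 0.29 (SE 0.03, adjusted p = 1.4e-12), and the 3 probe sets of NDUFS3 by 0.19, 0.22 and 0.29. NDUFV1 rose by 0.18 and the brightest probe set of NDUFV2 by 0.16, while its dimmer sets had slopes of 0.01 and 0.14 that did not pass. Among the accessory subunits, NDUFA8 and NDUFA9 rose by 0.24, NDUFS6, a zinc-binding subunit of the matrix arm, by 0.22 and NDUFA1 by 0.21. NDUFA4 rose by 0.24 (SE 0.02, adjusted p = 2.5e-15), the same as the steepest accessory subunits. The shallowest slopes that passed among the accessory subunits were those of NDUFB1 (0.10), NDUFB3 (0.11) and NDUFC2 (0.12). The slopes of NDUFB1 (0.06, adjusted p = 0.10) and NDUFB3 (0.10, adjusted p = 0.10) did not pass without animals 114 and 102, and that of NDUFB1 was 0.02 (adjusted p = 0.66) after quantile normalization. The 1 probe set that fell was the dimmer set of NDUFA1 (-0.26, SE 0.08, adjusted p = 0.017).

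**Figure D3:**
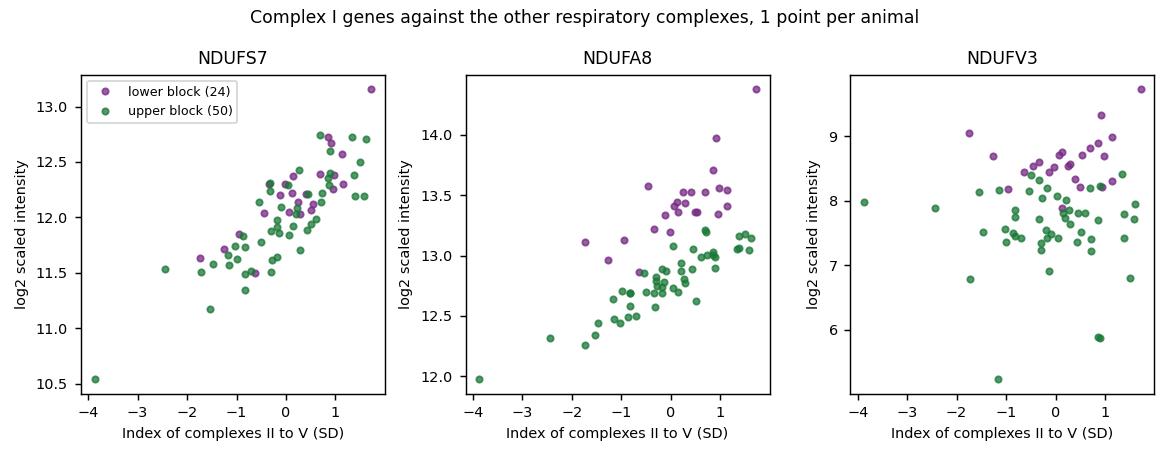
Log2 level of NDUFS7, NDUFA8 and NDUFV3 (vertical axes) against the index of complexes II to V in SD (horizontal axis), 1 point per animal, coloured by label block. NDUFS7 and NDUFA8 rose with the index in both blocks, by 0.34 and 0.24 per SD, and NDUFV3 had a slope of 0.01.

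The relation was present in each label block. Within the lower block 15 members rose and 0 fell, beside 1.53% and 4.62% of all kept probe sets, and within the upper block 35 rose and 0 fell, beside 6.26% and 6.56%. NDUFS7 rose by 0.36 (SE 0.06, limma, adjusted p = 0.001) in the lower and 0.34 (SE 0.03, adjusted p = 2.2e-11) in the upper block, and NDUFA8 by 0.28 (SE 0.06, adjusted p = 0.0061) and 0.23 (SE 0.02, adjusted p = 8.8e-13). A test of the difference between the slopes of the blocks in limma called 0 of 43 members, of which 5 had an unadjusted p under 0.05. It called 0.0167% of all kept probe sets as steeper and 0.0% as shallower in the upper block. NDUFS1, NDUFS6 and NDUFA4 had slopes of 0.25, 0.20 and 0.31 in the lower block and 0.30, 0.22 and 0.22 in the upper block, of which the first 2 did not pass in the lower block (adjusted p = 0.06 and 0.13).

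**Figure D4:**
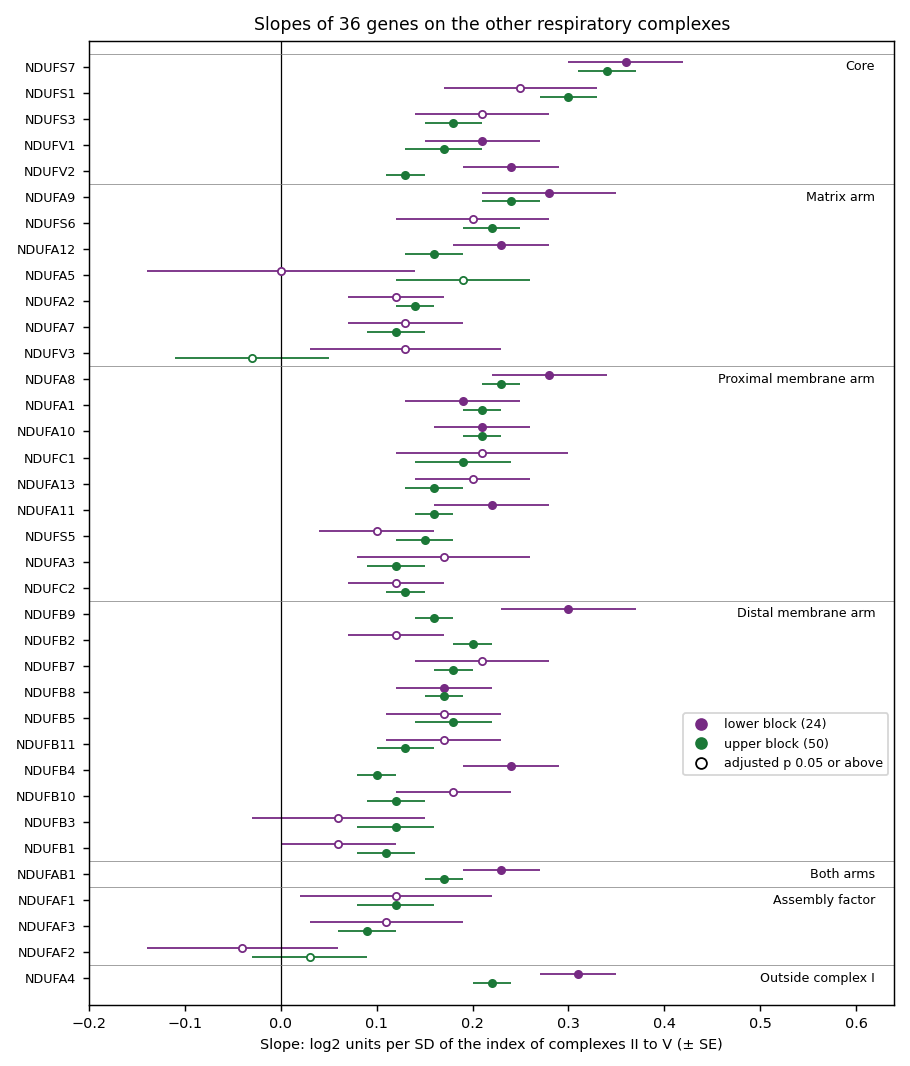
Slope on the index of complexes II to V (log2 per SD, horizontal axis) of the brightest probe set of each of the 36 genes, fitted within the lower (purple) and the upper (green) label block, with bars for the SE and grouped by class. Core and most accessory subunits lie to the right of 0 in both blocks, and assembly factors and NDUFV3 lie close to it.

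Each of the other complexes gave a like count on its own. Of the 43 members, 32 rose with an index of complex II alone, 36 with complex III, 30 with complex IV and 36 with complex V, beside 9.49%, 8.12%, 5.55% and 9.75% of all kept probe sets. Complex III was read by 2 genes and complex II by 4. The animals farthest from the middle of the index were animals 114 (-3.87 SD) and 102 (-2.44 SD), both with low values. Without these, 31 members rose and 1 fell. The counts were 35 and 1 both without animals 23, 114 and 26 and after quantile normalization. In bulk tissue, fewer cells or fibres of a kind and less RNA per cell cannot be told apart, and this holds for each of these slopes.

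The assembly factors followed the index weakly. NDUFAF1 rose by 0.12 (SE 0.04, limma, adjusted p = 0.019) with its brighter probe set and not with the other (0.06, adjusted p = 0.14). NDUFAF3, which acts in the assembly of the part that binds ubiquinone, rose by 0.09 (SE 0.03, adjusted p = 0.021), and NDUFAF2 had a slope of 0.01 (SE 0.05, adjusted p = 0.89). Both calls were lost when few animals were left out, that of NDUFAF3 without animal 114 (adjusted p = 0.056) and that of NDUFAF1 without animals 114 and 102 (adjusted p = 0.054). No assembly factor passed within the lower block. With the adipocyte index as a covariate 0 of 4 passed, while 34 of all 43 members still rose. The probe sets of NDUFAF1 and NDUFAF2 were among the dimmest of the 43 members. The part of a low signal in their weak slopes was not tested.

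NDUFAF3 ran from 9.81 to 11.31 (median 10.29) in the lower block and from 9.55 to 10.54 (median 10.05) in the upper block, a difference of -0.29 (SE 0.07, limma, adjusted p = 0.00016) that came to -0.01 with the array level as a covariate (adjusted p = 0.95). In the main fit the 3 assembly factors stood on different sides, NDUFAF1 higher and NDUFAF2 and NDUFAF3 lower in the upper block. In the intensities as deposited NDUFAF2 did not pass and the difference of NDUFAF3 turned positive. Assembly factors without an NDUF symbol were read by 7 kept probe sets. Of these, 4 were higher and 1 lower in the upper block, beside 36.6% and 24.8% of all kept probe sets, and 2 rose with the index, beside 9.11%. With 7 probe sets these counts cannot be set apart from the background. ECSIT, which binds NDUFAF1 in human cells, was lower in the upper block (-0.57, SE 0.06, adjusted p = 1.1e-13) and rose with the index (0.17, SE 0.02, adjusted p = 1.2e-09). TMEM126B, a partner in the same assembly complex, was higher in the upper block (0.71, SE 0.09, adjusted p = 7.1e-10) and had a slope of 0.04 (adjusted p = 0.51). FOXRED1 was also higher there (0.60, SE 0.09, adjusted p = 5.4e-09), with a slope of 0.01 (adjusted p = 0.84), and ACAD9 passed neither test (0.02 and 0.06).

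The citric acid cycle and the mitochondrial ribosome gave counts near those of complexes II to V. With an index of 13 citric acid cycle genes, 36 of 43 members rose and 1 fell (limma, adjusted p under 0.05), beside 9.66% and 13.1% of all kept probe sets. Among the largest slopes were again those of NDUFS7 (0.38, SE 0.03, adjusted p = 6.5e-17) and NDUFS1 (0.32, SE 0.03, adjusted p = 1.3e-12). With 58 genes of the mitochondrial ribosome, 35 rose and 0 fell, beside 10.0% and 12.9%, led by NDUFS7 (0.31, SE 0.04, adjusted p = 2.9e-08). In the lower block alone, 11 members rose with the citric acid cycle, beside 1.99% of all kept probe sets, and 13 with the mitochondrial ribosome, beside 1.52%.

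With 54 genes of the cytosolic ribosome, 2 members rose and 0 fell, beside 2.37% and 1.71% of all kept probe sets, so that the members were near the background. The 2 were NDUFB1 and NDUFA3, each with a slope of 0.13, and 1 was left without any of animals 23, 114 and 26. After quantile normalization 3 rose and 22 fell, beside 10.3% and 11.9%, so that the count of members that follow the cytosolic ribosome depended on the scaling.

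With 9 slow fibre genes, 10 members rose and 0 fell, beside 2.14% and 0.834% of all kept probe sets. NDUFS7 (0.16, SE 0.04, limma, adjusted p = 0.021), NDUFV1 (0.15, SE 0.03, adjusted p = 0.0047) and NDUFA9 (0.14, SE 0.04, adjusted p = 0.014) had the largest slopes. All 10 calls rested on animal 114, which had the lowest slow fibre index (-5.27 SD). Without it 0 members passed in limma, 7 had an unadjusted p under 0.05, and 0.334% of all kept probe sets rose. Without animal 23 the count was 8, beside 1.59% of all kept probe sets, and without animal 26 it was 12, beside 2.46%. In the lower block alone it was 0, beside 0.0% of all kept probe sets, so that this block says nothing particular about the members.

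With 11 glycolysis genes, 20 members rose and 4 fell, beside 19.6% and 21.8% of all kept probe sets. The glycolysis index followed the level of the array, with r of -0.73 in the lower and -0.88 in the upper block (24 and 50 arrays), as the members did in part: 21 of 43 members fell and 8 rose with the array level, beside 25.1% and 25.2%. After quantile normalization 4 members rose with glycolysis and 0 fell, beside 11.0% and 8.33%. Without animals 23, 114 and 26, 12 rose and 8 fell with glycolysis, beside 19.0% and 21.5% of all kept probe sets, which is nearer the background than with all animals. Without animal 114 alone the counts were 13 and 7, beside 18.2% and 21.0%, and without animal 26 alone 8 fell, beside 24.4%. With the array level, 10 members fell without the 3 animals, beside 22.5% of all kept probe sets, so that the members were then near the background, and 13 fell without animal 23 alone, beside 21.3%. The part of the array level in these counts was not tested.

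Of the regulators of mitochondrial genes, PPARGC1A and TFAM were read. PPARGC1A, a coactivator that raises the activity of respiratory genes, itself rose with the index of complexes II to V (0.71, SE 0.13, limma, adjusted p = 1.9e-05). Per SD of PPARGC1A, 17 members rose and 1 fell, beside 3.4% and 5.03% of all kept probe sets. They were led by NDUFS7 (0.18, SE 0.04, adjusted p = 0.0069), NDUFS1 (0.17, SE 0.04, adjusted p = 0.0061), NDUFA9 (0.16, SE 0.03, adjusted p = 0.0017) and NDUFA4 (0.15, SE 0.03, adjusted p = 0.00088). The counts were 14 and 1 without animals 23, 114 and 26, and 13 and 1 after quantile normalization. None of the kept assembly factors was among the 17.

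TFAM, which packs and transcribes mitochondrial DNA, gave 9 members that rose and 15 that fell, beside 26.9% and 32.7%, so that the members were near the background. TFAM rose with the array level by 1.23 (SE 0.15, limma, adjusted p = 1.2e-09) and its slope on the index of complexes II to V was 0.01 (SE 0.05, adjusted p = 0.89).

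Markers of other cell types moved with some of these results. Of 7 adipocyte markers 4 had a probe set and 3 were kept, LPL, FABP4 and ADIPOQ, and all 3 fell with the index of complexes II to V (median slope -0.30). The summed log2 level of the 4 ran from 11.94 to 15.31 in the lower block and from 11.44 to 15.16 in the upper block. With an index of the kept adipocyte markers, 17 members fell and 1 rose, beside 5.04% and 8.48% of all kept probe sets. NDUFS7 (-0.16, SE 0.04, limma, adjusted p = 0.0077) and NDUFA4 (-0.15, SE 0.03, adjusted p = 0.00012) were among those that fell, and the 1 that rose was the dimmer set of NDUFA1 (0.31, SE 0.08, adjusted p = 0.0049). With that index as a covariate, 34 members rose with complexes II to V and 0 fell, beside 5.56% and 6.9%. The index holds only 3 markers, and the part of fat in these slopes was not tested.

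The fibroblast markers DCN and COL1A2, 2 of 4 read, also fell with the index, with a median slope of -0.13 over the 4, and both were higher in the upper block, where COL3A1 was lower. Of the 3 adipocyte markers kept, FABP4 was higher in the upper block (median 0.15 over the 3). Of 4 smooth muscle markers 3 were read, and all 3 were lower in the upper block (median -0.53), with a summed log2 level of 13.21 to 14.70 in the lower and 12.53 to 14.26 in the upper block. Of 4 leukocyte markers kept, 2 were higher and 1 was lower in the upper block, of 4 endothelial markers kept 1 was higher and 2 were lower, and of 2 erythroid markers 1 was lower there and 1 fell with the index. The part of these cell types in the member differences between the blocks was not tested.

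Within complex I, the members varied together. Over the 630 pairs of the 36 genes, with block means removed in 74 animals, the median Pearson r was 0.468 (Spearman rho 0.423) and 531 pairs were positive, while the median r over all pairs of kept probe sets was 0.00. Within the lower block the median r was 0.434 (rho 0.306), and within the upper block 0.496 (rho 0.457). These values describe pairs that share their animals and the scaling of each array. Core subunits had a median r of 0.561 with each other and 0.560 with accessory subunits, and accessory subunits 0.478 with each other. Assembly factors had a median r of 0.090 with core and 0.132 with accessory subunits, but they were unlike each other, since the median r with the other 35 genes was 0.44 for NDUFAF3, 0.13 for NDUFAF1 and -0.10 for NDUFAF2. Without animals 23, 114 and 26 the median over all pairs was 0.417 (rho 0.412), and the medians for assembly factors were 0.148 and 0.162. NDUFAF1 and NDUFAF2 were read by dim probe sets, and the part of a low signal in their low r was not tested.

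**Figure D5:**
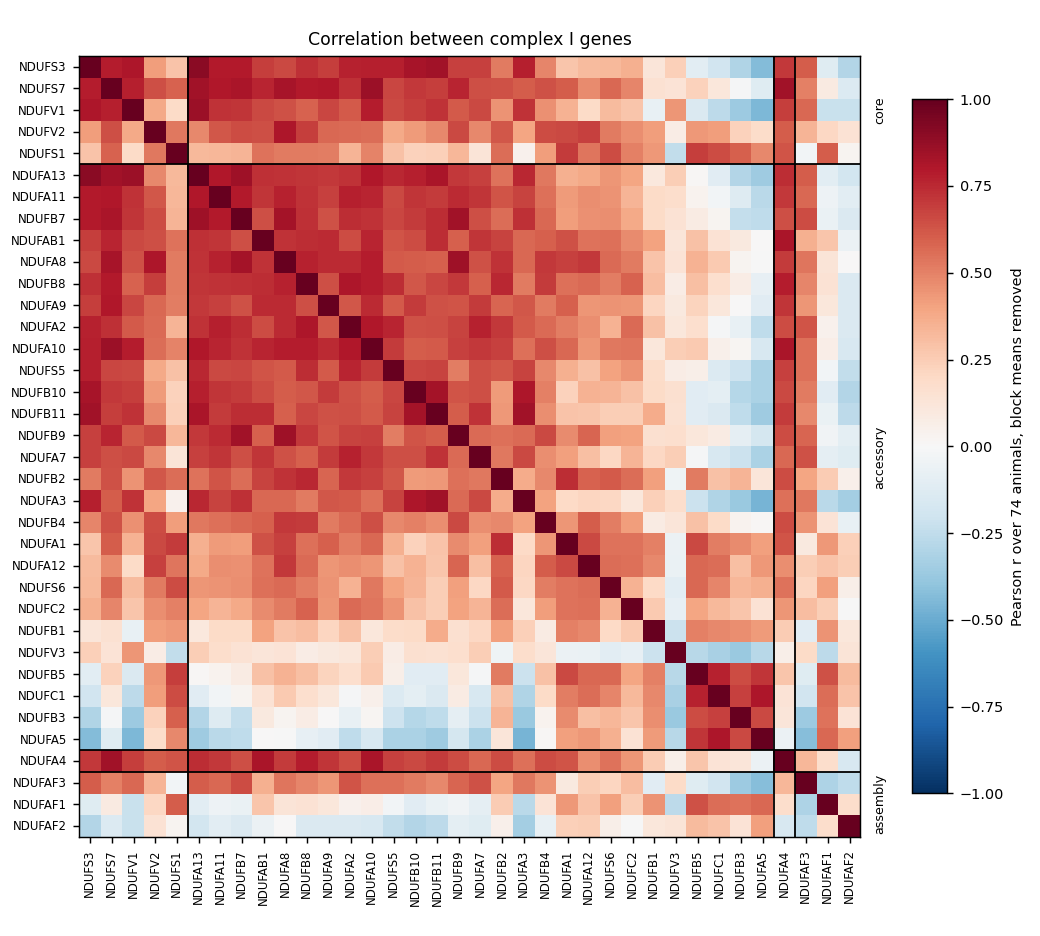
Pearson r between the 36 genes (brightest probe set of each) over 74 animals with block means removed, with genes grouped by class on both axes and colour for r. Core and accessory subunits form a block of positive values with a median r near 0.5, and NDUFAF1, NDUFAF2 and a few accessory genes form paler or negative stripes, unlike NDUFAF3.

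Among the closest pairs was that of NDUFA13, an accessory subunit of the proximal membrane arm, with the core subunit NDUFS3 (r 0.87 in the lower and 0.92 in the upper block, rho 0.76 and 0.87). NDUFA8 and NDUFB9, in the proximal and the distal part, were also close (r 0.94 and 0.78, rho 0.79 and 0.83). The gene with the highest median r with the other 35 was NDUFA13 (0.69), followed by NDUFA11 and NDUFS3 (0.66), and the lowest were NDUFB3 (0.03), NDUFA5 (-0.08) and NDUFAF2 (-0.10). NDUFA13, NDUFA11 and NDUFB9 were chosen after their values were seen.

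A small set of members, picked for this pattern after the values were seen, had a higher median r with each other than with the other members. The set is NDUFA5, NDUFC1, NDUFB3, NDUFB5 and NDUFAF1, which come from the matrix arm, both parts of the membrane arm and the assembly factors. Their 10 pairs had a median r of 0.72 (from 0.60 to 0.84) in the lower block and 0.65 (from 0.44 to 0.83) in the upper block. With the other 31 genes, over 155 pairs, the median r was -0.17 (rho 0.02) in the lower block and 0.17 (rho 0.17) in the upper block. Some genes outside the set came close to it, so that it has no sharp edge. The core subunit NDUFS1 correlated with its genes at r from 0.60 to 0.77 in the lower and from 0.42 to 0.66 in the upper block. For NDUFA12 r was from 0.50 to 0.75 in the upper block but from -0.33 to 0.13 in the lower. NDUFA5 and NDUFC1 were close in both blocks (r 0.76 and 0.83, rho 0.73 and 0.83). Without animals 23, 114 and 26 the medians of the 10 pairs were 0.70 and 0.64, and after quantile normalization 0.72 and 0.58.

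By their brightest probe sets, all 5 of these genes also rose with the level of the array, each past the threshold in limma. Their slopes were 1.47 (NDUFA5), 0.95 (NDUFC1), 0.74 (NDUFB3), 0.65 (NDUFAF1) and 0.53 (NDUFB5) per log2 unit of the array level. Most of the other members that passed fell with it, for example NDUFA3 (-0.92, SE 0.11, adjusted p = 1.1e-09), NDUFV1 (-0.73, SE 0.13, adjusted p = 8.2e-06) and NDUFB11 (-0.69, SE 0.09, adjusted p = 1.1e-08). The second probe set of NDUFB3 rose as well (1.0, SE 0.18, limma, adjusted p = 7.7e-06). That of NDUFAF1 did not pass (-0.13, SE 0.13, adjusted p = 0.4), so that the rise of NDUFAF1 rests on its brighter probe set. The part of the array level in the relation among the 5 genes was not tested. In the blocks they did not move alike, since NDUFB3 and NDUFAF1 were higher in the upper block and the others were not.

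Single animals lay at the edge of many members at once. Animal 114, in the upper block, was the lowest of its block in 25 of the 36 genes. Animal 23, in the lower block, was the highest of its block in 26 genes and the lowest in 3. Animal 11 was the lowest of the lower block in 10 genes, with an index of complexes II to V of -1.74 SD. Animals 114 and 23 were those with the highest and the lowest array mean, and the index was -3.87 SD in the first and 1.72 SD in the second. What set these arrays apart was not tested.

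No member passed a test against label order or against the GAPDH measure of RNA integrity. Within the upper block, 0 of 43 members changed with the label number in limma, with 5 at an unadjusted p under 0.05, and 0.0% of all kept probe sets were called. In the lower block there were also 0, with 1 at an unadjusted p under 0.05, beside 0.0% that rose and 0.00833% that fell. With the difference between the 3′ and 5′ probe sets of GAPDH, a measure of RNA integrity, 0 members were called in limma and 3 had an unadjusted p under 0.05, beside 0.0667% that rose and 0.025% that fell. That difference averaged 0.15 in the lower and 0.20 in the upper block. The same difference for actin was larger, with a mean of 1.72 (from 1.41 to 2.06) in the lower and 1.81 (from 1.18 to 2.29) in the upper block. The members were not tested against the actin difference. With the GAPDH difference as a covariate, 6 members were higher and 25 lower in the upper block, beside 34.7% and 23.5%.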

How the data were processed

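The authors processed the scans with GCOS 1.1.1 (global scaling), used MAS5 present calls as a filter and obtained expression values with PLIER (ArrayAssist). Their deposited table gives intensities on a linear scale for 24123 probe sets, of which 124 are controls, in 74 animals. The sources used here do not state which algorithm made them. No column was left unmapped (0).

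From these, every array was brought to a mean of 500, with 2% trimmed at each end, values under 1 were set to 1, and log2 was taken. In place of the present calls, the 12000 probe sets with the highest medians were kept. Arrays have no read depth, and their number limits the precision. Of 23999 probe sets, 10069 have 1 symbol in the array annotation, 198 have several and 13732 have none. A gene was read by its brightest probe set. Where probe sets of a gene disagreed, both are given.

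Block differences and slopes were fitted with limma 3.58.1 (lmFit and eBayes) in R 4.3.3 and adjusted by Benjamini-Hochberg over all kept probe sets, at 0.05. Slopes had the block as a covariate, and the background shares leave out the probe sets of the index itself. Scripts were tested on simulated data. Python 3.11.15 with numpy 2.4.6, pandas 2.3.3 and scipy 1.17.1 gave the rest.

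The members, gene lists and tests were chosen with earlier results of these data known. Named genes are the core subunits, the assembly factors, NDUFA4 and NDUFAB1, the 4 accessory genes at each end of the block difference and of the slope, and genes whose probe sets passed in opposite directions. Other genes named were chosen after their values were seen. Alternatives covered the scaling, the log offset of 16, the filter, covariates, single blocks and animals left out.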

Additional observations from a re-analysis of the deposited data

Results flagged for a closer look

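For 2 members the slope on the index of the cytosolic ribosome differed between the label blocks by an interaction term in limma, among 43 tested (the same test called 4.7% of all kept probe sets as steeper and 3.27% as shallower in the upper block, so that the count of members was at the background). The slope of the dimmer probe set of NDUFB3, of the distal membrane arm, was -0.29 (SE 0.08) in the lower and 0.12 (SE 0.07) in the upper block, a difference of 0.41 (SE 0.11, adjusted p = 0.019). The brighter probe set of NDUFB3 gave a difference of 0.17 (SE 0.08, adjusted p = 0.16). The slope of NDUFA5, of the matrix arm, was -0.27 (SE 0.09) and 0.21 (SE 0.11), a difference of 0.48 (SE 0.15, adjusted p = 0.033).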

How the results depend on the processing

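No paired analysis was possible because each animal has 1 array and all animals form 1 group. The counts of members by block difference (7 higher, 26 lower) kept within 1.5 times under quantile normalization, the log offset, all probe sets, the GAPDH covariate and each set of animals left out. Among the brightest 25% of probe sets 4 members were higher, beside 30.6% of all probe sets in that filter. In the intensities as deposited 30 were higher and 2 lower, and with the array level as a covariate 14 were lower. The differences that changed sign came to 0.40 (NDUFB1), 0.38 (NDUFAB1), 0.24 (NDUFV2, brightest set), 0.39, 0.05 and 0.42 (the 3 sets of NDUFS3), 0.32 (NDUFS7), 0.17 (NDUFV1), 0.49 (NDUFS6) and 0.30 (NDUFAF3) in the intensities as deposited, where the median of all probe sets moves by 0.65. With the array level as a covariate they came to 0.01 (NDUFAB1), 0.24 (NDUFS3, brightest set), 0.08 (NDUFS7) and 0.01 (NDUFV1). No named slope on complexes II to V that passed changed sign under any alternative tried.

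The count of members that rose with complexes II to V was 15 in the lower block alone, which holds fewer animals, and otherwise lay from 30 to 41. That range includes the intensities as deposited, where 68.8% of all kept probe sets rose with the index, beside 9.11% in the main fit. The member count in that setting is therefore not particular to complex I. The 1 that fell became 0 within either block, with no block term, in the intensities as deposited, among the brightest 25%, on the index of complex II, III or IV, and with the adipocyte covariate. In the lower block alone 11 members rose and 0 fell with the citric acid cycle and 13 rose with the mitochondrial ribosome. In that block 0 rose with slow fibre genes, beside 0.0% of all kept probe sets. There 5 rose and 0 fell with glycolysis, beside 5.66% and 4.25%, and 1 fell with the cytosolic ribosome, beside 6.29%. In the upper block alone 1 rose with the cytosolic ribosome. After quantile normalization 3 rose with slow fibre genes, 4 rose and 0 fell with glycolysis, and 22 fell with the cytosolic ribosome. Without animal 114, 0 rose with slow fibre genes and 13 rose and 7 fell with glycolysis. Without animals 23, 114 and 26, 0 rose with slow fibre genes, 12 rose and 8 fell with glycolysis, 1 rose with the cytosolic ribosome and 10 fell with the array level. Without animal 26, 8 fell with glycolysis, without animal 23, 13 fell with the array level, and without any 1 of the 3, 1 rose with the cytosolic ribosome. The cause was not tested.

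The median r over the 630 pairs was 0.653 (0.627 in the lower and 0.676 in the upper block) in the intensities as deposited, where all values share the level of the array, and 0.354 (0.30 and 0.39) after quantile normalization. Leaving out single animals, the counts on the other indices and the alternative of the 3 arrays were chosen after seeing the data. A search of promoters for motifs, the mitochondrial core subunits and the regulators ESRRA, NRF1 and GABPA were planned and not run.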
